A study of Mus musculus with 12 samples.

Results

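Lifr, Il6st, Jak1, Stat3, Socs3, Socs2, Bcl3 and Pim1 are 8 genes of the signalling route of leukaemia inhibitory factor (LIF), taken by name from a deposited table of 17901 genes. All 8 were in the table and passed the filter on low values. They were chosen for their place in the route, with earlier results of these data known. They were followed in the mouse embryonic stem (ES) cell line TT2, in 4 groups of 3 libraries. A double knockout of Rlf and Zfp292 (DKO) and wild-type cells (WT) were taken after 72 hours in ES medium without LIF and with 5 µM retinoic acid (RA), and in ES medium with LIF, called Serum/LIF by the series (serum/LIF below). All 4 groups share the TT2 line and the serum of the medium, and the RA groups differ from the serum/LIF groups both in RA and in LIF, so those effects cannot be told apart. The labels call the libraries biological replicates but do not give the number of knockout clones, so p-values measure the spread between these libraries only.

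LIF binds its receptor chain LIFR, which pairs with gp130, the protein of Il6st. The kinase JAK1, bound to these chains, then phosphorylates the transcription factor STAT3, which enters the nucleus and switches on genes that hold mouse ES cells in the undifferentiated state. Socs3 is such a target, and its protein closes a feedback loop by binding gp130 and JAK and blocking further signalling. Socs2, Bcl3 and Pim1 are further cytokine-induced genes. The transcripts say nothing of how much STAT3 was phosphorylated, which was not analysed here.

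The 11 libraries whose whole reads could be recovered held 31410028 to 40236799 reads in genes. Values are normalized counts, that is reads divided by the authors' size factor of the library. Rlf had 0.316 ± 0.547 normalized counts (SD, n = 3) in DKO after RA and 2611 ± 131 in WT. In serum/LIF it had 2.30 ± 1.99 in DKO and 3611 ± 96.3 in WT. Zfp292 was at 0 in the DKO libraries, and at 3166 ± 363 in WT after RA and 4909 ± 324 in WT in serum/LIF. Replicate 2 of WT after RA stood apart, with 41.7% of its repeat-table values in rRNA-class repeats, and the 11 other libraries had 4.14% to 7.28%. Summed over 8 ES cell markers such as Pou5f1 and Nanog, DKO after RA had 10388 to 11343 normalized counts and WT after RA 5352 to 5891, against 145882 to 149187 for DKO kept in serum/LIF and 162876 to 168367 for WT kept there.

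Among the 8 genes Socs3 and Bcl3 were lowered the most in DKO relative to WT, and Pim1 was higher, in both media. After RA, Socs3 stood at 47.1% and Bcl3 at 49.3% of their WT means, and Pim1 at 1.70 times its WT mean. In serum/LIF the same genes stood at 72.7%, 59.0% and 1.22 times. Stat3 was lower by a similar amount in each medium, Il6st was called lower after RA alone, and Jak1 was not called in either. The medium moved some genes of the set more than the knockout did, Pim1 among them. Socs2 was 8.10-fold lower after RA than in serum/LIF in DKO and 8.27-fold lower in WT. Pim1 fell to 31.1% of its serum/LIF mean in DKO and 22.3% in WT. In RNA from a whole culture, fewer cells of a type and less RNA per cell cannot be told apart.

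**Figure D1:**
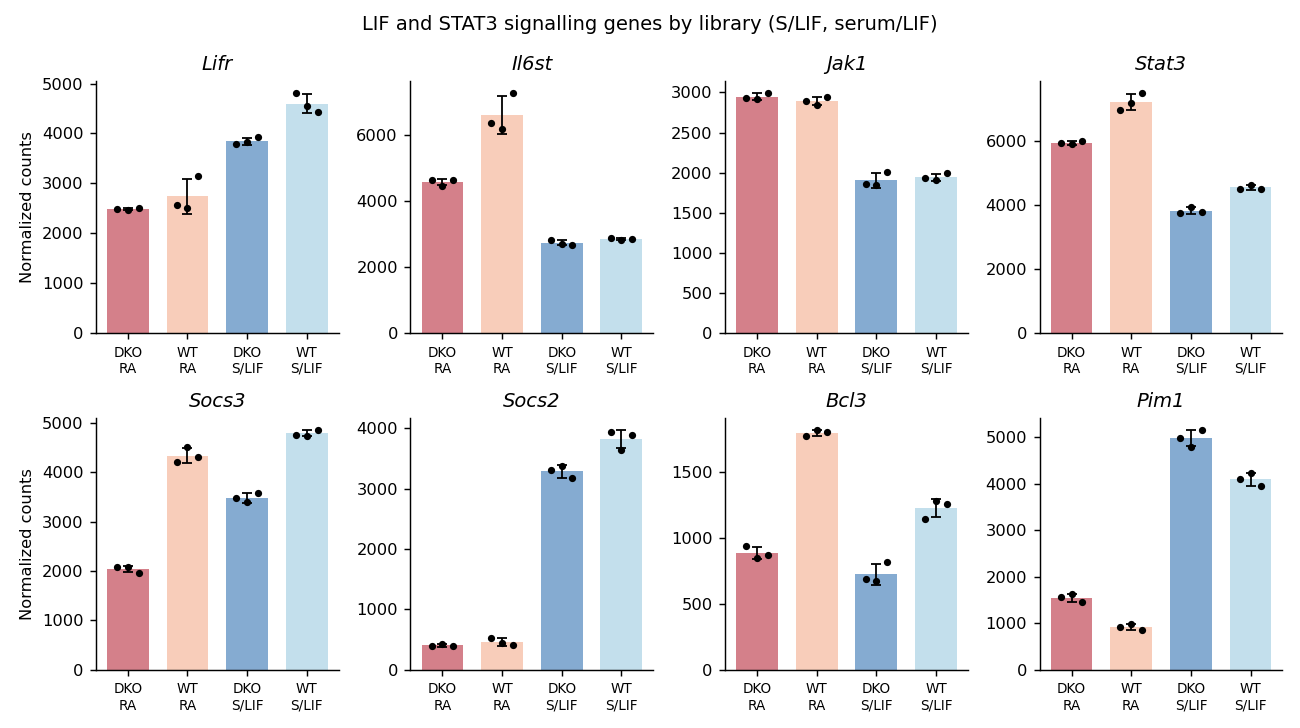
Normalized counts of the 8 genes (vertical axes, linear, each with its own range from 0) in DKO and WT libraries after RA and in serum/LIF. Points are libraries, bars are means and error bars are SDs over 3 libraries; Socs3 and Bcl3 points of DKO lie below those of WT in each medium and Pim1 points above.

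After RA, 5 of the 8 genes passed the test of DKO against WT, 4 lower and 1 higher. Across all 15750 genes tested 42.7% were called, 20.7% lower and 22.0% higher. In serum/LIF, 6 of the 8 were called, 5 lower and 1 higher, where 33.2% of all genes were called, 15.4% lower and 17.8% higher. The median log2 fold change of DKO over WT over the 8 genes was −0.23 after RA and −0.23 in serum/LIF, and over all genes tested it was 0.01 and −0.01. The DKO and WT libraries did not overlap for 6 of the 8 genes after RA, 5 lower and 1 higher, and for 6 in serum/LIF, 5 lower and 1 higher. Of all genes, 54.5% did not overlap after RA (26.5% lower and 28.0% higher) and 43.9% in serum/LIF (21.9% lower and 22.0% higher). The test was limma on log2(value + 1) with all 12 libraries in 1 fit, and genes with a p under 0.05 after Benjamini-Hochberg adjustment over all genes count as called. Without replicate 2 of WT after RA, 7 of the 8 were called after RA, 6 of them lower, as Lifr and Socs2 then passed. The authors' deposited table gave the same sign and call in 32 of 32 pairs of gene and comparison.

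**Figure D2:**
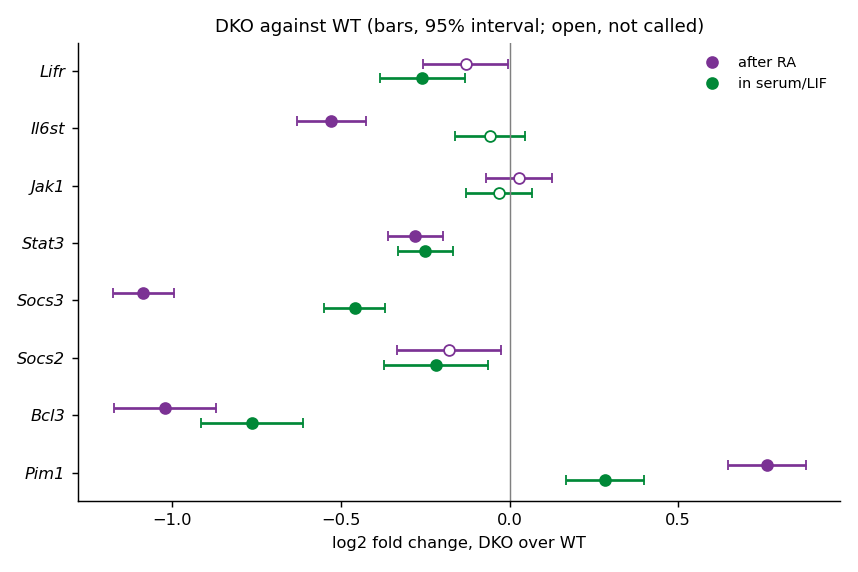
Log2 fold change of DKO over WT (horizontal axis) for each gene after RA and in serum/LIF, with 95% intervals of the limma fit; filled points were called and open points were not. Socs3 and Bcl3 are near −1 after RA, Pim1 lies to the right of 0 in each medium, and the intervals of Jak1 span 0.

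The receptor chains moved in opposite directions with the medium. Lifr (NM_001358593.1, mm10 chromosome 15, 7129572 to 7197489) had 2493, 2460 and 2508 normalized counts in the 3 DKO libraries after RA, against 2563, 2509 and 3139 in WT. In serum/LIF it had 3779, 3824 and 3923 in DKO and 4810, 4544 and 4436 in WT. The WT value of replicate 3 after RA was well above the others of its group, and the lowest WT library there was within 1 normalized count of the highest DKO library. In serum/LIF every DKO library lay below every WT library, a log2 fold change of −0.26 ± 0.06 (SE, limma adjusted p = 0.0019). After RA the difference was −0.13 ± 0.06 (adjusted p = 0.0878, 95% interval −0.26 to −0.005) and was not called. It passed without replicate 1 (−0.17, adjusted p = 0.0439) or replicate 2 of WT after RA (−0.19, 0.0157), and without replicate 3 of that group it was −0.03 (0.679).

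Il6st (NM_010560.3, chromosome 13, 112464070 to 112506860) encodes gp130, the chain that the receptors of the interleukin-6 family share. It had 4633, 4468 and 4641 normalized counts in DKO after RA and 6388, 6192 and 7285 in WT, so the groups did not overlap. In serum/LIF it had 2827, 2715 and 2671 in DKO and 2894, 2813 and 2842 in WT, which overlapped. The log2 fold change of DKO over WT was −0.53 ± 0.05 after RA (limma adjusted p = 7.22e-09) and −0.06 ± 0.05 in serum/LIF (adjusted p = 0.403, 95% interval −0.16 to 0.05). After RA Il6st rose to 1.67 times its serum/LIF mean in DKO and 2.32 times in WT, while Lifr fell to 64.7% in DKO and 59.5% in WT. Within each library, where the scaling cancels out, the ratio of Il6st to Lifr normalized counts was 1.84 ± 0.02 in DKO and 2.43 ± 0.09 in WT after RA (SD, n = 3), and 0.713 ± 0.034 in DKO and 0.621 ± 0.019 in WT in serum/LIF. Its lowest value in any RA library was 1.82, and its highest in any serum/LIF library was 0.748.

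Jak1 (NM_146145.2, chromosome 4, 101151974 to 101265282), the kinase of the receptor complex, differed little between genotypes. It had 2933, 2918 and 2993 normalized counts in DKO after RA and 2893, 2845 and 2943 in WT, and 1860, 1845 and 2006 in DKO and 1929, 1909 and 1994 in WT in serum/LIF. The log2 fold change of DKO over WT was 0.03 ± 0.05 after RA (95% interval −0.07 to 0.12, limma adjusted p = 0.679) and −0.03 ± 0.05 in serum/LIF (−0.13 to 0.07, 0.659). With RA it rose to 1.55 times its serum/LIF mean in DKO and 1.49 times in WT. Its locus overlaps Raver2 on the other strand, and whether reads were counted by strand is not given in the sources used here. Raver2 averaged 936.3 in DKO and 830.6 in WT after RA (0.17 ± 0.06, limma adjusted p = 0.0329). In serum/LIF it averaged 1233 in DKO and 1051 in WT (0.23 ± 0.06, 0.00758). Any part of Raver2 reads in the Jak1 values was not tested.

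Stat3 (NM_213659.3, chromosome 11, 100886806 to 100939540), the transcription factor of the route, was lower in DKO by about the same step in each medium. It had 5937, 5905 and 6018 normalized counts in DKO after RA, all below the 6985, 7195 and 7508 of WT. In serum/LIF the values were 3761, 3947 and 3785 in DKO and 4514, 4636 and 4513 in WT. The log2 fold change of DKO over WT was −0.28 ± 0.04 after RA (limma adjusted p = 3.19e-06) and −0.25 ± 0.04 in serum/LIF (2.11e-05), and the difference between those effects was −0.03 ± 0.06 (95% interval −0.14 to 0.08, adjusted p = 0.725). After RA, in medium without LIF, Stat3 rose to 1.55 times its serum/LIF mean in DKO and 1.59 times in WT.

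Socs3 (NM_007707.3, chromosome 11, 117966079 to 117969366) encodes the feedback inhibitor of the pathway. Its promoter, from 250 bases before to 50 after the annotated start (RefSeq, GRCm38.p6, chr11:117969317-117969616, minus strand), is shown because Socs3 had the largest genotype effect of the set after RA. Beside it stands the promoter of Bcl3 (chr7:19822706-19823005, minus strand), the other gene that fell by about as much after RA, and by more in serum/LIF. Capitals mark TTCNNNGAA, the palindromic core to which STAT proteins bind, so that 1 search covers both strands.
Socs3: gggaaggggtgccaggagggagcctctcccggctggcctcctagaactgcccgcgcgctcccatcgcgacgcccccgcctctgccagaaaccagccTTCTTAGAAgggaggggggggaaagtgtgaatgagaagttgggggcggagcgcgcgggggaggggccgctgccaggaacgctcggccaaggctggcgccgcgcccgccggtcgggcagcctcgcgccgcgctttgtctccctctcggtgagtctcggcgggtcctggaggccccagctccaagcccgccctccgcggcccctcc
Bcl3: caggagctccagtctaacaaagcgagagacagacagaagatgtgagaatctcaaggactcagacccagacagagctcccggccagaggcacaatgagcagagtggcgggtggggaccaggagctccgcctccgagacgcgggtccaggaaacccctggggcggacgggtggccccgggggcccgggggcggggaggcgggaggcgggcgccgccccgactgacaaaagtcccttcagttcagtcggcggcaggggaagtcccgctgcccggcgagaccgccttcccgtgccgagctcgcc

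The Socs3 window held 1 match, TTCTTAGAA, starting 154 bases before the annotated start, and the Bcl3 window held 0. Of the 9 windows of the 7 genes with one in the table (Lifr, Il6st, Jak1, Stat3, Socs3, Bcl3 and Pim1), only this Socs3 window held a match, while 8.30% of 32851 mouse promoter windows of 300 bases held one. The letters GGGCGG, a GC box, searched on both strands, were in 7 of the 9 windows and in 35.7% of all windows. A match is a run of letters and no evidence of binding in these cells.

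After RA, Socs3 had 2082, 2084 and 1964 normalized counts in DKO, against 4205, 4504 and 4307 in WT. In serum/LIF it had 3470, 3389 and 3590 in DKO and 4760, 4744 and 4862 in WT. Every DKO library lay below every WT library in each medium, and DKO after RA was the lowest of the 4 groups. The log2 fold change of DKO over WT was −1.09 ± 0.04 after RA (limma adjusted p = 2.16e-15) and −0.46 ± 0.04 in serum/LIF (1.07e-08). After RA 9.44% of all genes tested had a larger absolute change. The effect after RA exceeded that in serum/LIF by −0.63 ± 0.06 (interaction term, adjusted p = 3.24e-08).

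Seen from the side of the medium, after RA Socs3 fell to 58.7% of its serum/LIF mean in DKO (−0.77 ± 0.04, limma adjusted p = 5e-14) and to 90.6% in WT (−0.14 ± 0.04, 0.0047). The small fall in WT depended on the scaling: with every library scaled to the same total it turned to 0.12 ± 0.04 (adjusted p = 0.0163). Under that scaling the median of all genes moved to 0.30 in WT and 0.27 in DKO, from 0.04 in each with the authors' size factors. Relative to Stat3 in the same library, which no scaling touches, Socs3 stood at 0.343 ± 0.015 in DKO and 0.601 ± 0.026 in WT after RA, and at 0.910 ± 0.046 in DKO and 1.05 ± 0.03 in WT in serum/LIF (ratio of normalized counts, SD, n = 3). The 4 groups did not overlap in this ratio, in that order from lowest to highest.

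Socs2 (NM_007706.4, chromosome 10, 95411490 to 95416857) encodes another member of the SOCS family, best known for restraining growth hormone signalling. It was the gene of the set that followed the medium most. It had 400.1, 428.9 and 387.5 normalized counts in DKO and 531.4, 439.5 and 413.6 in WT after RA, and 3315, 3374 and 3167 in DKO and 3931, 3643 and 3884 in WT in serum/LIF. The genotypes overlapped after RA and did not in serum/LIF. After RA it changed by −3.02 ± 0.07 in DKO and by −3.05 ± 0.07 in WT on the log2 scale (limma adjusted p = 4.89e-21 and 2.21e-21), and 5.21% and 8.56% of all genes had a larger absolute change. The genotype effect was −0.22 ± 0.07 in serum/LIF (adjusted p = 0.0278) and −0.18 ± 0.07 after RA (0.0566, 95% interval −0.33 to −0.02).

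The Socs2 genotype calls lay near the threshold and moved with single libraries and settings. In serum/LIF the call was lost without replicate 1 or 3 of DKO (adjusted p = 0.0625 and 0.0953) or replicate 1 or 3 of WT (0.092 and 0.0805). After RA it was gained without replicate 2 of DKO (0.0404) or replicate 2 or 3 of WT (0.0427 and 0.00862). It was also gained with every library scaled to the same total (−0.19, 0.0442), and on the recovered reads of 11 libraries with edgeR (−0.23, adjusted p = 0.0319) and DESeq2 (−0.22, 0.0305).

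Bcl3 (NM_033601.3, chromosome 7, 19808462 to 19822755) encodes a nuclear member of the IκB family that works with NF-κB subunits on DNA. After RA it had 936.7, 845.8 and 871.6 normalized counts in DKO and 1769, 1814 and 1803 in WT. In serum/LIF it had 688.0, 669.0 and 814.5 in DKO and 1145, 1278 and 1256 in WT. All DKO libraries of either medium lay below all WT libraries of either medium. The log2 fold change of DKO over WT was −1.02 ± 0.07 after RA (limma adjusted p = 5.67e-11) and −0.76 ± 0.07 in serum/LIF (1.13e-08). After RA Bcl3 rose to 1.22 times its serum/LIF mean in DKO (adjusted p = 0.000833) and 1.46 times in WT (2.32e-07). The difference between the genotype effects was −0.26 ± 0.10 (adjusted p = 0.0604) and not called. It was called without replicate 1 of DKO after RA (−0.30, 0.0465) or replicate 2 of DKO in serum/LIF (−0.31, 0.0273), and with every library scaled to the same total (−0.28, 0.0369). An antisense gene, Gm16174, lies over the Bcl3 locus and had a mean of 3.67 to 9.93 normalized counts in the 4 groups.

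Pim1 (NM_008842.4, chromosome 17, 29490785 to 29496111) encodes a serine/threonine kinase that promotes survival and is induced by STAT factors. It was the only one of the 8 called higher in DKO. After RA it had 1555, 1628 and 1458 normalized counts in DKO and 910.6, 976.4 and 849.6 in WT. In serum/LIF it had 4987, 4793 and 5151 in DKO and 4092, 4225 and 3947 in WT. The groups did not overlap in either medium. The log2 fold change of DKO over WT was 0.76 ± 0.06 after RA (limma adjusted p = 9.19e-11) and 0.28 ± 0.06 in serum/LIF (0.000329), and the effect after RA was larger by 0.48 ± 0.08 (5.39e-05). After RA Pim1 fell to 31.1% of its serum/LIF mean in DKO and 22.3% in WT. An antisense gene, Gm26885, overlaps its locus and was not analysed here.

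The RA comparisons called all 8 genes in each genotype, 4 higher (Il6st, Jak1, Stat3 and Bcl3) and 4 lower (Lifr, Socs3, Socs2 and Pim1). Of all genes tested, 78.3% were called in DKO (40.2% higher and 38.2% lower) and 80.6% in WT (41.4% and 39.2%), so the count of 8 is read against a high background. The RA and serum/LIF libraries did not overlap for any of the 8 genes, nor for 80.3% of all genes in DKO (41.1% higher and 39.2% lower) and 81.5% in WT (41.7% and 39.8%). With every library scaled to the same total, Socs3 in WT moved to the higher side and the other 15 directions held. That scaling also put 63.0% of all calls higher in DKO and 63.2% in WT, where the authors' size factors gave 51.3% in each. DKO and WT share no libraries in these comparisons, and the median log2 change over the 8 genes was −0.17 in DKO and 0.20 in WT.

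**Figure D3:**
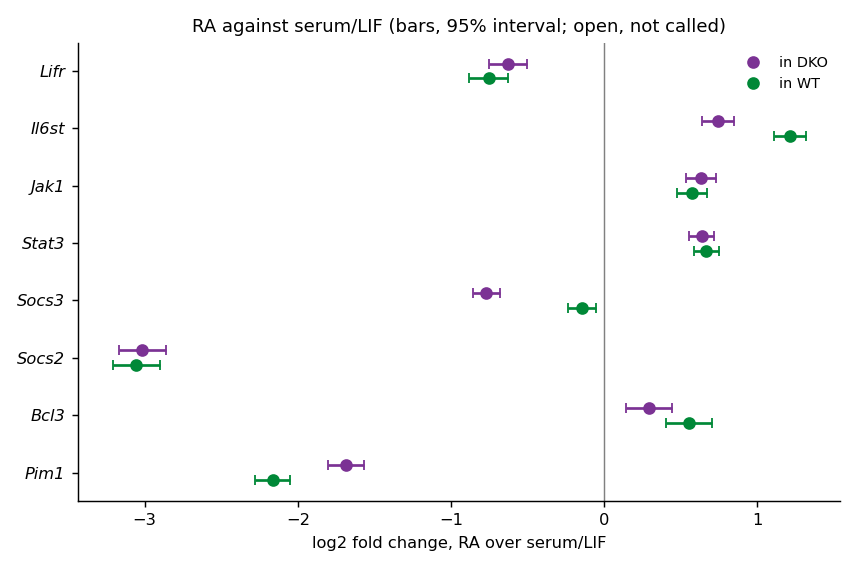
Log2 fold change of RA over serum/LIF (horizontal axis) for each gene in DKO and WT, with 95% intervals of the limma fit; all 16 points were called. Socs2 lies near −3 in each genotype, and the Socs3 interval of DKO lies left of that of WT, whose small fall turned positive with every library scaled to the same total.

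The interaction term, the DKO effect after RA less the serum/LIF one, was called for 3 of the 8 genes, Il6st, Socs3 and Pim1, where 30.8% of all genes were called. For Il6st it was −0.47 ± 0.07 (limma adjusted p = 1.67e-05). Not called, besides Stat3 and Bcl3, were Lifr at 0.13 ± 0.09 (95% interval −0.05 to 0.31), Jak1 at 0.06 ± 0.07 (−0.08 to 0.20) and Socs2 at 0.04 ± 0.11 (−0.18 to 0.26). Lifr passed without replicate 3 of WT after RA (0.23, adjusted p = 0.00777).

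Values per kilobase of transcript allow a rough comparison of levels between genes. On this scale Stat3 led in DKO after RA with 1318 ± 13 normalized counts per kilobase, followed by Socs3 with 801 ± 27. In WT after RA the order was reversed, with Socs3 at 1700 ± 59 and Stat3 at 1601 ± 58. In serum/LIF Pim1 led in DKO (1845 ± 66) and Socs3 in WT (1876 ± 25). Il6st stood at 528 ± 11 in DKO and 763 ± 67 in WT after RA, and at 316 ± 9 in DKO and 328 ± 5 in WT in serum/LIF, where it was last of the 8. Jak1 stood at 601 ± 8 in DKO and 590 ± 10 in WT after RA, and at 388 ± 18 in DKO and 396 ± 9 in WT in serum/LIF. Lifr stood at 258 ± 3 in DKO and 284 ± 36 in WT after RA and at 398 ± 8 in DKO and 476 ± 20 in WT in serum/LIF. Socs2 was last of the 8 after RA in DKO (183 ± 10) and in WT (208 ± 28), and the second in both genotypes in serum/LIF (1478 ± 48 in DKO and 1719 ± 70 in WT). All SDs are over 3 libraries, and lengths are those of the GENCODE transcripts matched to the RefSeq accessions, a single length per gene. The order of genes with close levels can depend on the transcript chosen, which the SDs do not carry. The coefficient of variation within a group was 0.978% to 13.4% over the 8 genes and 4 groups, with a median of 3.37%.

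For each gene, the genes with the most similar profile over the 12 libraries were found by the root mean square difference of log2(value + 1), each gene centred on its own mean, among 12388 genes. For Socs3 they were Bst2 (difference 0.12), which encodes the antiviral membrane protein tetherin, and Gstm1 (0.13), a glutathione transferase gene. Bst2 had means of 1057 in DKO and 2006 in WT after RA, and 1854 in DKO and 2238 in WT in serum/LIF. For Bcl3 they were the transcription factor gene Wt1 (0.13) and Nmral1 (0.13), and Wt1 averaged 468.8 in DKO and 945.3 in WT after RA, and 395.3 in DKO and 769.9 in WT in serum/LIF. For Pim1 they were the adhesion gene Mcam (0.10) and Foxh1 (0.10), a transcription factor gene of Nodal signalling. Closest to Il6st were Sipa1l1 (0.06) and Pign (0.09), to Socs2 Mkrn1 (0.10) and Slc17a9 (0.15), to Lifr Ipo11 (0.07) and Atr (0.08), to Stat3 Frmd4a (0.05) and Ckap4 (0.05), and to Jak1 Unk (0.03) and Fam193a (0.04). The likeness is a description of these 12 libraries.

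A wider set of 56 pathway genes in 6 lists was read beside the 8. In it 53 passed the filter, Il6 was not in the table, and Cntf and Il27 were below the filter. After RA 20 of the 53 were higher in DKO and 7 lower, with a median log2 fold change of 0.10, and in serum/LIF 10 were higher and 16 lower, with a median of −0.05. More were thus called higher than lower after RA and more lower than higher in serum/LIF, while Socs3 and Bcl3 were lower in each. The counts called, 27 and 26 of 53, stand beside 42.7% and 33.2% of all genes. By direction, 22.0% of all genes were higher and 20.7% lower after RA, and 17.8% higher and 15.4% lower in serum/LIF.

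Among the 15 genes listed as STAT3 targets, 7 were higher and 4 lower in DKO after RA, and 5 higher and 5 lower in serum/LIF. The shares of all genes were 22.0% higher and 20.7% lower after RA, and 17.8% higher and 15.4% lower in serum/LIF. Tfcp2l1, which encodes a naive pluripotency factor, changed sides: it averaged 920.2 in DKO and 483.9 in WT after RA (0.93 ± 0.06, limma adjusted p = 7.94e-12), and 2359 in DKO and 4647 in WT in serum/LIF (−0.98 ± 0.06, 3.55e-12). The homeobox gene Gbx2 was lower in DKO in each medium, with 784.0 in DKO and 1924 in WT after RA (−1.30 ± 0.07, 1.81e-13) and 1242 in DKO and 2043 in WT in serum/LIF (−0.71 ± 0.07, 7.51e-09). Pim2, a paralogue of Pim1, averaged 406.4 in DKO and 385.6 in WT after RA (0.08 ± 0.06, 0.343), and 4302 in DKO and 1580 in WT in serum/LIF, a ratio of means of 2.72 (7.42e-15). Mcl1, which encodes an anti-apoptotic BCL2 relative, was higher after RA (0.50 ± 0.04, 7.13e-11) and slightly lower in serum/LIF (−0.12 ± 0.04, 0.0111). Klf4, a naive pluripotency factor, was higher in DKO after RA (0.54 ± 0.10, 7.81e-05) and lower in serum/LIF (−0.46 ± 0.10, 0.000703).

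Of the other STAT genes, 2 were higher and 1 lower in DKO after RA, and 4 of 6 were called in serum/LIF, each lower. Among all genes, 42.7% were called after RA (22.0% higher and 20.7% lower) and 33.2% in serum/LIF (17.8% higher and 15.4% lower). Stat6, which carries interleukin-4 signals, averaged 964.7 in DKO and 584.7 in WT after RA (0.72 ± 0.07, limma adjusted p = 1.98e-08), and 1178 in DKO and 1391 in WT in serum/LIF (−0.24 ± 0.07, 0.0122). Stat5a was lower in serum/LIF (−0.47 ± 0.10, 0.000786), as was Stat5b (−0.27 ± 0.07, 0.00293). After RA Stat5b was higher (0.20 ± 0.07, 0.0175), a call that was lost without replicate 1 or 3 of DKO after RA (0.0514 and 0.0665) or replicate 1 of WT after RA (0.0523).

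In the inhibitor list 5 of 13 genes were called in DKO after RA, each higher, with 2 higher and 2 lower in serum/LIF. Among all genes, 42.7% were called after RA (22.0% higher and 20.7% lower) and 33.2% in serum/LIF (17.8% higher and 15.4% lower). Cish, a SOCS family gene that STAT5 induces, averaged 217.9 in DKO and 127.1 in WT after RA (0.77 ± 0.14, limma adjusted p = 0.00012). The phosphatase gene Ptpn6 was higher after RA (0.36 ± 0.07, 0.000365) and lower in serum/LIF (−0.42 ± 0.07, 9.08e-05). Pias2, of the family that inhibits STATs in the nucleus, was higher after RA (0.12 ± 0.04, 0.0245) and lower in serum/LIF (−0.19 ± 0.04, 0.00139). Socs1, which inhibits JAK kinases directly, was at −0.31 ± 0.15 after RA (0.0921) and 0.33 ± 0.15 in serum/LIF (0.0937).

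Of 8 kinase and adaptor genes, 4 were higher and 2 lower in DKO after RA, and 2 higher and 3 lower in serum/LIF. These counts stand beside 42.7% of all genes called after RA (22.0% higher and 20.7% lower) and 33.2% in serum/LIF (17.8% higher and 15.4% lower). Grb2, an adaptor that links receptors to RAS, was lower after RA (−0.53 ± 0.04, limma adjusted p = 6.29e-10) and at −0.01 ± 0.04 in serum/LIF (0.941). The kinase gene Jak2 averaged 1388 in DKO and 1558 in WT after RA (−0.16 ± 0.08, 0.111), and was higher in serum/LIF, with 372.4 in DKO and 244.9 in WT (0.61 ± 0.08, 2.66e-06). The scaffold gene Gab1 was higher after RA (0.22 ± 0.04, 0.000144) and lower in serum/LIF (−0.19 ± 0.04, 0.000709).

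Between genotypes 1 of 6 ligands and 1 of 5 other receptors were called after RA, and 1 of 6 and 2 of 5 in serum/LIF, beside 42.7% and 33.2% of all genes. Lif itself averaged 584.8 in DKO and 529.5 in WT after RA, and 415.2 in DKO and 399.9 in WT in serum/LIF, and was not called (limma adjusted p = 0.25 and 0.664). It was higher after RA than in serum/LIF in DKO (0.49 ± 0.10, 7.64e-05) and in WT (0.41 ± 0.10, 0.000508). Osm, which encodes oncostatin M, averaged 3.05 in DKO and 5.01 in WT after RA (−0.80 ± 0.60, 0.3), and was lower in serum/LIF, with 18.4 in DKO and 121.8 in WT (−2.66 ± 0.60, 0.00125). Cntfr, the ciliary neurotrophic factor receptor gene, was higher in DKO in each medium, with 5420 in DKO and 3632 in WT after RA (0.58 ± 0.06, 8.7e-09) and 1165 in DKO and 876.1 in WT in serum/LIF (0.41 ± 0.06, 2.76e-06).

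**Figure D4:**
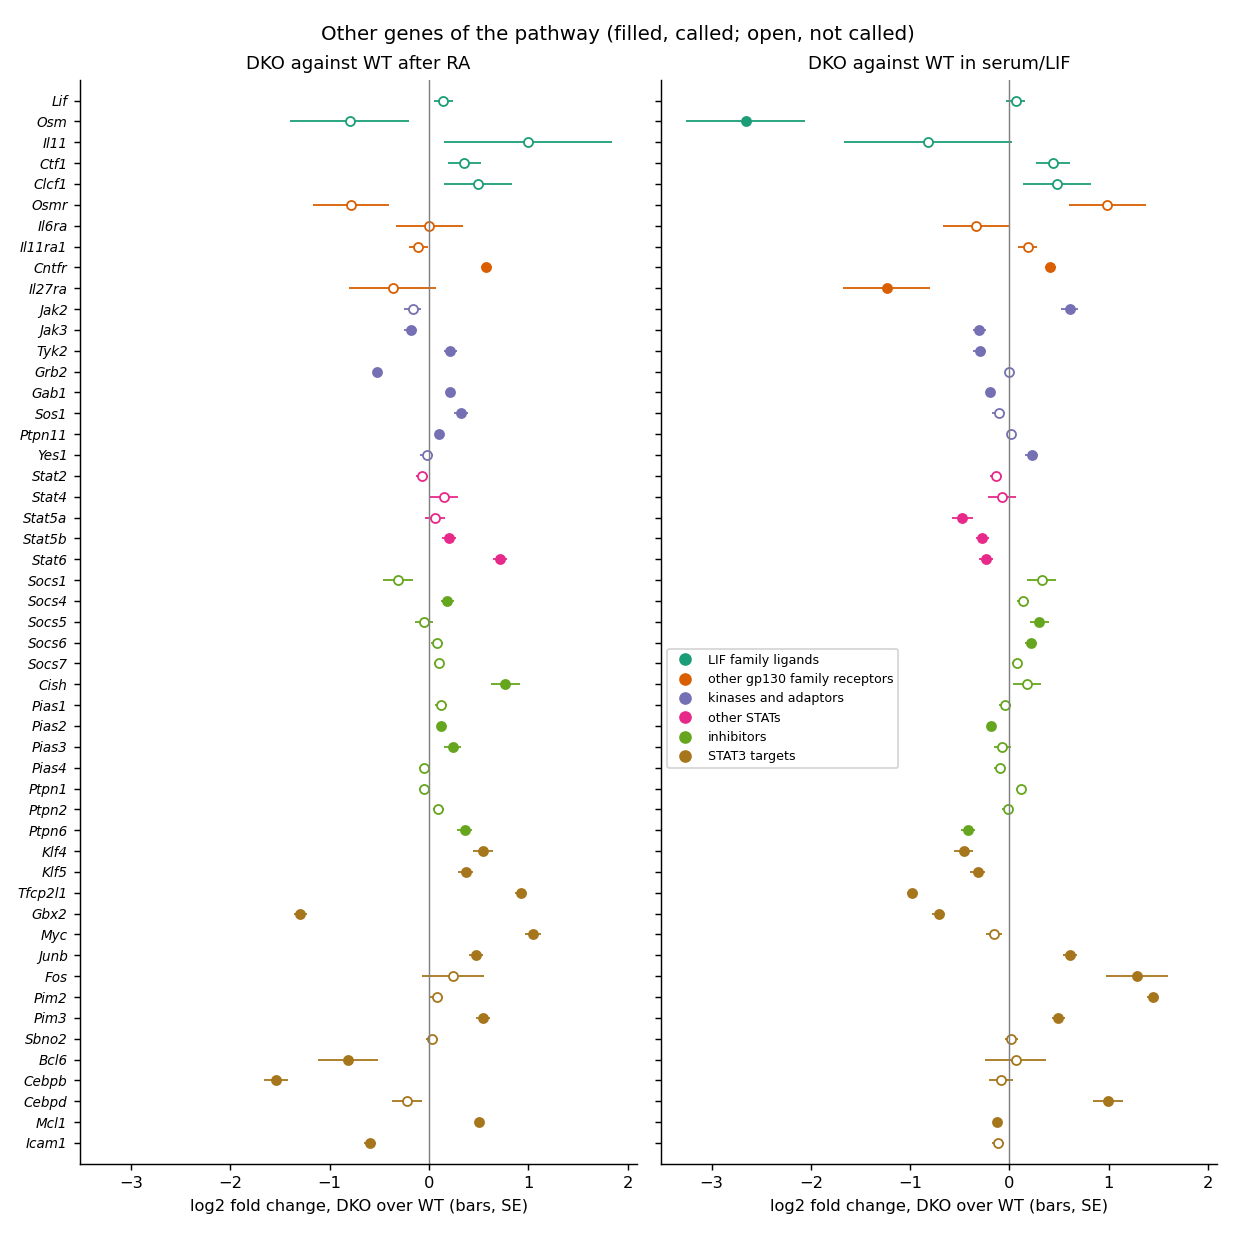
Log2 fold change of DKO over WT (horizontal axis, with SE) for 51 of the 53 tested genes of the 6 wider lists, after RA on the left and in serum/LIF on the right; filled points were called and open points were not. Tfcp2l1, Klf4, Stat6 and Ptpn6 lie right of 0 after RA and left of 0 in serum/LIF, and Gbx2 lies left of 0 in each.

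Markers of other cell types moved with the genotype and the medium. Their counts stand beside 42.7% of all genes called after RA (22.0% higher and 20.7% lower). In serum/LIF the share was 33.2% (17.8% higher and 15.4% lower). After RA all 8 ES cell markers were higher in DKO. Of the 8 neural markers 7 were lower and 1, Nes, was higher, with 9099 in DKO and 6933 in WT (0.39 ± 0.04, limma adjusted p = 2.74e-08). The neural list summed to 12851 to 13066 in DKO and 15285 to 15648 in WT after RA, with Nes the largest part of each sum. In serum/LIF 4 of 8 ES cell markers were lower in DKO, and 6 of 8 neural markers were higher and 1 lower, with summed levels of 13866 to 14537 in DKO and 10624 to 11299 in WT. The mesenchyme markers summed to 63797 to 66403 in DKO and 50451 to 52136 in WT after RA. Of these 10 markers 4 were higher and 1 lower, and their median log2 fold change of DKO over WT was −0.17. In serum/LIF they summed to 22230 to 23559 in DKO and 7486 to 7535 in WT, with 7 of 10 higher. The endoderm markers summed to 2981 to 3195 in DKO and 2167 to 2433 in WT after RA, and 490 to 526 in DKO and 248 to 345 in WT in serum/LIF, with 4 of 8 higher in each. The 6 blood cell markers in the table summed to 296 to 355 in DKO and 178 to 216 in WT after RA, and 540 to 557 in DKO and 298 to 395 in WT in serum/LIF. Most of the DKO sum came from Cd68, a lysosomal gene high in macrophages, the only one of the 6 called between genotypes. Cd68 averaged 291.2 in DKO and 157.5 in WT after RA (0.88 ± 0.12, limma adjusted p = 3.34e-06), and 400.9 in DKO and 163.6 in WT in serum/LIF (1.29 ± 0.12, 1.21e-08). Csf1r, the macrophage growth factor receptor gene, was at 0 in all WT libraries in serum/LIF and averaged 3.77 in DKO there, and 15.4 in DKO and 12.6 in WT after RA. The part of these shifts in the values of the 8 genes was not tested.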

How the data were processed

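The titles and protocol of the 12 TT2 libraries say RNA. The labels give the molecule as genomic DNA and the library source as genomic. The libraries were taken as total RNA, sequenced as paired-end reads. The tools, per the submitters' processing notes, were STAR 2.7.11b, Trim Galore 0.6.10, DESeq2 1.44.0 and, from Subread 2.0.6, featureCounts, and the genome build was mm10. Whether reads were counted by strand, or when mapped to several places, is not given in the sources used here. Each value of the deposited gene table is a signal, whole reads divided by the authors' DESeq2 size factor of each library. In 11 libraries 100% of values were within 0.01 of a whole read. In replicate 2 of WT after RA the step lay too near 1 for this check, so no count test used it. The repeat table was used only for rRNA shares. Per the file headers, the table also holds the authors' log2 fold changes and adjusted p-values.

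Values were transformed as log2(value + 1). A gene was tested where 3 or more libraries reached 10 (15750 of 17901), and limma 3.58.1 in R 4.3.3 (trend and robust) was fitted to all 12 libraries with 1 mean per group and no block. The fit was tested on simulated data. Fold changes carry the limma SE, and ratios are of group means. None of the 10 replicate pairs compared agreed within sampling noise (chi-square per degree of freedom 3.28 or more), and the pairs with replicate 2 of WT after RA were not compared. The 8 genes and all lists were chosen with earlier results of these data known, and p-values are adjusted over all genes. Beyond the 8, the text names, per comparison and list, genes among the 3 with the smallest adjusted p, and for each of the 8 the 2 nearest profiles, leaving out predicted genes and those whose highest group mean was under 100. Raver2, Gm16174, Il6, Cntf, Il27 and the markers named stand outside this rule. Some genes counted in the lists are not reported here by name. Matches to GENCODE M21 gave transcript lengths.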

Additional observations from a re-analysis of the deposited data

Results flagged for a closer look

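The genotype effect differed between the media, by the interaction term of the limma fit, for 3 of the 8 genes and for 18 of the other pathway genes considered, those among the smallest adjusted p of their list in any comparison. The values are log2 differences, the DKO effect after RA less the serum/LIF one. They were −0.47 for Il6st, −0.63 for Socs3 and 0.48 for Pim1. Among STAT3 targets they were 1.90 for Tfcp2l1, −1.37 for Pim2, 0.62 for Mcl1, 1.01 for Klf4 and −0.58 for Gbx2. Among the other STATs they were 0.96 for Stat6, 0.53 for Stat5a and 0.48 for Stat5b. In the inhibitor list they were 0.78 for Ptpn6, 0.31 for Pias2, −0.64 for Socs1 and 0.59 for Cish. Among kinases and adaptors they were −0.52 for Grb2, 0.41 for Gab1, −0.77 for Jak2, 0.43 for Sos1 and −0.25 for Yes1. The receptor gene Osmr was at −1.77. The interaction was itself 1 of the comparisons by which the other pathway genes were picked, so the 18 cannot be set against a share. In the 6 wider lists as a whole, 27 of 53 genes were called in this comparison, beside 30.8% of all genes tested. The adjusted p for Osmr rose to 0.0542 without replicate 1 of DKO after RA. For Socs1 it was 0.0593 and 0.0606 without replicates 1 and 3 of DKO after RA and 0.0725 without replicate 2 of WT in serum/LIF.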

How the results depend on the processing

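Over 21 alternatives (20 for the interaction), the number of the 8 genes called ran from 5 to 6 in serum/LIF and from 5 to 7 after RA for DKO against WT, stayed at 8 for RA in each genotype, and ran from 3 to 4 for the interaction. Calls in the wider lists ran from 23 to 28, 21 to 30, 41 to 46, 38 to 46 and 22 to 29 in the same order, and no count moved by over 1.5 times. With the replicate block 6, 5, 8, 8 and 3 of the 8 genes were called. Same-numbered libraries correlated at −0.03 to 0.05 in their deviations from group means, and 5 of 12 matched their own number best. All of these 5 were between DKO and WT in the same medium. Correlations this low cannot settle whether same-numbered DKO and WT libraries share a batch. Of 832 values of the 8 genes under alternatives, 809 kept direction and call, 4 lost the call, 14 gained it and 5 changed sign. The changes of sign were Socs3 with RA in WT, at 0.12 with every library scaled to the same total, and the interaction of Socs2, near 0 throughout, at −0.0034 without replicate 2 of DKO after RA, −0.013 with edgeR and −0.0058 with DESeq2, and from −0.037 (without replicate 3 of WT after RA) to 0.14 (without replicate 1 of WT after RA) with 1 library left out. The cause was not tested. Of 1645 values of the other named genes 1620 were unchanged in direction and call and 25 lost the call. The edgeR 4.0.16 and DESeq2 1.42.0 tests on recovered reads ran on 11 libraries and were added after the data were seen, since on 12 libraries they were not run. Each called 7 of the 8 genes after RA. Precision was low for genes with few reads, with SEs of 0.60 for Osm and 0.39 for Osmr.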
